A study of Mus musculus with 6 samples.

Results

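The genes described here are 10 neuropeptide precursor genes of the spinal cord, Tac1, Penk, Pdyn, Sst, Npy, Nts, Grp, Calca, Cck and Tac2. They were chosen by name, as the rows of the expression tables that carry these gene symbols, and a gene that a table does not list was taken as 0 FPKM. All 10 were listed above 0 in each of the 6 libraries, among 25576 genes listed in at least 1 library. FPKM is the number of fragments assigned to a gene, scaled by the transcript's length and the library's mapped fragments, so levels of different genes can be set side by side. All 10 also had a mean of at least 0.5 FPKM and were tested together with the other genes that passed this filter, 17088 in all.

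Bulk RNA-seq had been performed on spinal cord of FVB mice at postnatal day 4 in a severe model of spinal muscular atrophy (SMA), a disease of motor neurons caused by loss of the SMN protein. The 3 control libraries come from mice with the genotype mSmn+/-, hSMN22tg/0 and the 3 SMA libraries from mice with the genotype mSmn-/-, hSMN22tg/0. Both groups therefore carry the human SMN2 transgene, and the controls have only 1 intact copy of the mouse gene. The paper describes the bulk libraries of a group as triplicates of a single unit, which it does not define, so the replicates may come from the same animal. Therefore p-values measure the spread between these libraries, which may be technical. Ribosomal RNA had been removed from total RNA and the libraries were strand-specific. Which extent of the cord was taken is not given.

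Neuropeptides are cut from larger precursor proteins by convertases, packed into dense-core granules and released to act on G protein-coupled receptors, often far from the site of release. In the spinal cord most of the genes described here are transcribed in interneurons of the dorsal horn, where they mark cell types that gate pain, itch and touch. Somatostatin, the enkephalins, dynorphin and neuropeptide Y mostly reduce the firing of their target cells, while the tachykinins, cholecystokinin and gastrin-releasing peptide mostly raise it, and calcitonin gene-related peptide is made by sensory neurons and motor neurons.

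Smn1, the targeted gene, measured 10.4, 8.64 and 11.9 FPKM in the controls, against 8.48, 9.30 and 11.1 FPKM in the SMA libraries. The groups overlapped, and a whole-gene level does not show which exons were transcribed, so Smn1 leaves the genotype labels unchecked. The paper states that newborn mice were genotyped from tail tissue. Libraries are named by these labels throughout, and each direction between SMA and control rests on them. The 3 values of a group are always given in the order of replicates 1, 2 and 3. The number of reads per library is unknown. The most frequent ratio of low values (under 0.15 FPKM) put the depths of control replicates 1 to 3 at 1.15, 1.08 and 1.04 times that of SMA replicate 1, and those of SMA replicates 2 and 3 at 1.02 and 0.994 times.

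Control replicate 2 stood apart from the other 5 libraries. All 19 genes of a hepatocyte list were highest there, with a summed level of 33661 FPKM (8.14% of all FPKM) against 114 and 83.4 FPKM in the other controls and 69.8, 139 and 77.6 FPKM in the SMA libraries. Alb, the serum albumin gene, was the most abundant of them, and 1 of the 19 was listed at 0 in a library (control replicate 1). The 8 erythroid genes, led by the globin gene Hbb-bs, and the 7 neutrophil genes, led by S100a8, were also all highest in control replicate 2. Their sums there were 18844 and 418 FPKM, while the highest sums in another library were 1863 and 11.6 FPKM.

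The neuropeptide precursor genes ran the other way. Their summed level measured 253, 125 and 224 FPKM in the controls, against 274, 266 and 277 FPKM in the SMA libraries, so that control replicate 2 was lowest and the 3 SMA libraries were highest. Of the 10 genes, 9 were lowest in control replicate 2, where 44.9% of all genes tested were lowest. Tac2 was the exception, lowest in control replicate 3. Relative to the mean of control replicates 1 and 3, the 10 genes lay between 1.20 and 0.53 log2 units lower in control replicate 2. The median of these differences was -0.75, beside -0.82 for 13 pan-neuronal genes and -0.13 for all genes tested. Among the pan-neuronal genes, 11 of 13 were lowest in control replicate 2, and the exceptions were the long noncoding RNA genes Meg3 and Snhg11. The part of the hepatocyte, erythroid and neutrophil transcripts in the low neuropeptide levels of this library was not tested, and the main comparisons below are given with and without it.

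**Figure D1:**
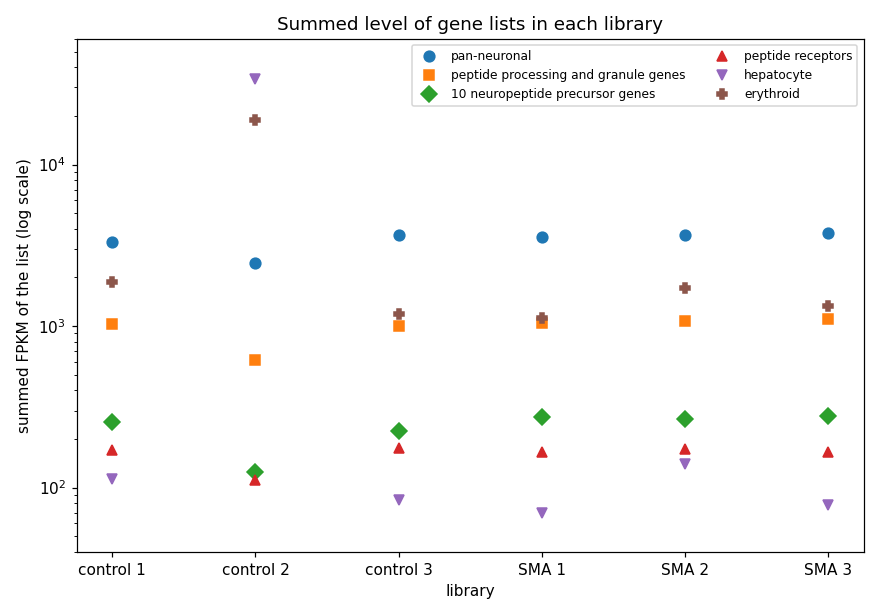
Summed FPKM (log scale) of 6 gene lists in each library, 1 point per list and library. The 10 neuropeptide precursor genes fall to 125 FPKM in control replicate 2 and lie between 224 and 277 FPKM in the other libraries, while the hepatocyte and erythroid lists peak in control replicate 2.

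By mean level over the 6 libraries, Sst was the most abundant of the 10 genes (88.5 FPKM), followed by Penk (42.0), Tac1 (31.3), Cck (22.0), Npy (15.7), Pdyn (11.8), Calca (11.7), Nts (7.22), Grp (4.81) and Tac2 (1.38 FPKM). The order of Sst, Penk, Tac1 and Cck was the same in all 6 libraries. Cck was above Npy, Npy above Pdyn, Pdyn above Calca and Calca above Nts in 5 of 6 libraries each, so these neighbours were not separated beyond their spread. Nts was above Grp and Grp above Tac2 in all 6 libraries. Sst alone made up between 33.6% and 40.7% of the summed level of the 10 genes in a library.

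**Figure D2:**
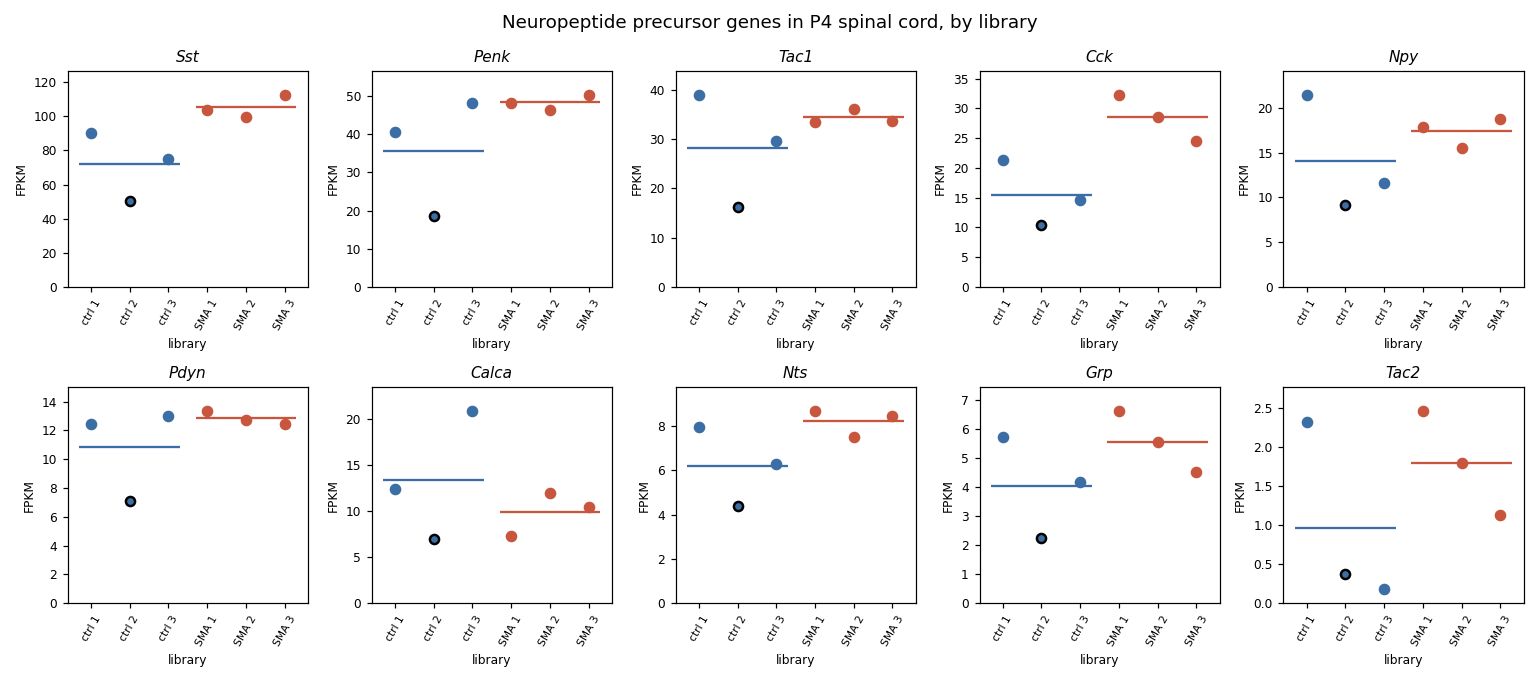
FPKM of each of the 10 genes in each library (ctrl, control, in blue; SMA in red), with a line at the mean of each group and a black ring around control replicate 2, in order of falling mean level. The SMA libraries lie above all control libraries for Sst and Cck, and the groups overlap for the other 8 genes.

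In the comparison of all 6 libraries, 2 of the 10 genes, Sst and Cck, were higher in SMA at an unadjusted limma p under 0.05, where 581 of all 17088 genes tested were (3.4%). None of the 10 was lower at that threshold, where 409 genes were (2.39%). No gene of the 17088 passed an adjusted p of 0.05 (0.0%), while 990 had an unadjusted p under 0.05 by limma. Of these 990, 58.7% were higher in SMA, and other scalings put this share between 8.39% (pan-neuronal genes) and 65.9% (quantiles). Every SMA library lay above every control library for 2 of the 10 genes, again Sst and Cck, and for 10.3% of all genes tested. Every SMA library lay below every control library for none of the 10 and for 6.67% of all genes tested. The log2 fold change was positive for 9 of the 10 genes, with a median of 0.40, where 58.0% of all genes tested were positive and their median was 0.044. Fold changes here are differences of mean log2(FPKM + 1), which understate changes of genes near 1 FPKM.

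Without control replicate 2 the median over the 10 genes was 0.13, beside 0.0016 for the 16574 genes then tested. At an unadjusted p under 0.05, Sst and Cck were again higher (5.27% of all genes tested), and Calca was lower (5.2% of all genes tested). The groups did not overlap for the same 3 genes, 2 of them higher in SMA (14.2% of all genes tested) and 1 lower (13.9%). By limma with Benjamini-Hochberg adjustment, 2 of the 16574 genes had an adjusted p under 0.05 (0.0121%), and neither was among the 10. Without control replicate 1, which lies above the other controls for several of these genes, 6 of the 10 had a p under 0.05, all higher in SMA, and the groups did not overlap for 7. Over all genes tested these shares rose as well, to 9.38% with a p under 0.05 and 33.6% without overlap, from 5.79% and 17.0% with all 6 libraries. In bulk tissue, fewer cells of a type and less RNA per cell cannot be told apart, which holds for every difference given here.

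**Figure D3:**
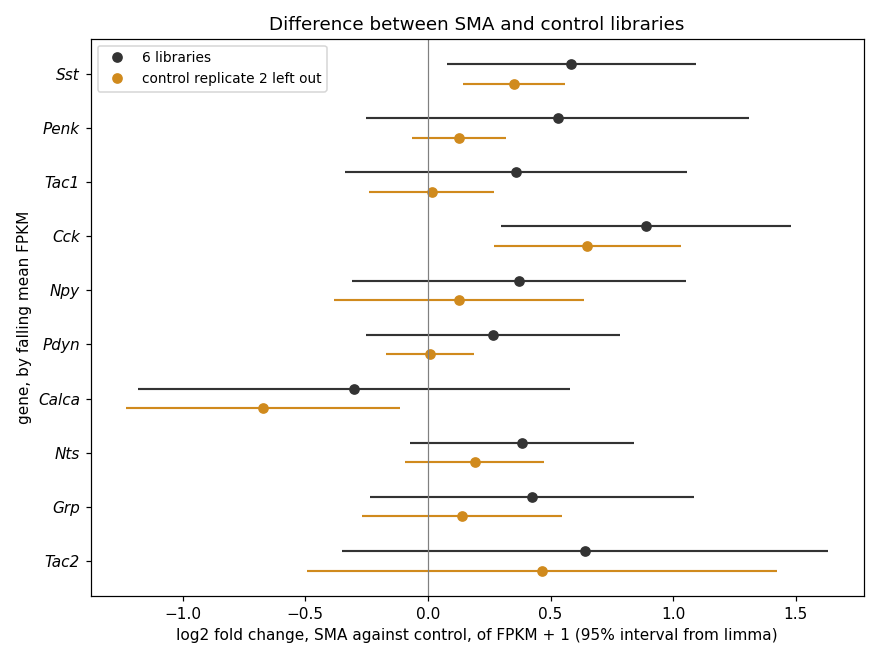
Log2 fold change of FPKM + 1 between SMA and control (points) with 95% intervals from limma (lines), for all 6 libraries (black) and with control replicate 2 left out (orange). The intervals of Sst and Cck lie above 0 in both, that of Calca lies below 0 only with control replicate 2 left out, and those of the other 7 genes include 0.

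Sst encodes somatostatin, an inhibitory peptide found in excitatory interneurons of the dorsal horn. The gene lies on chromosome 16 from 23889573 to 23890958 (GENCODE M21, GRCm38, minus strand). It measured 90.0, 50.2 and 75.2 FPKM in the controls, against 104, 99.6 and 113 FPKM in the SMA libraries. All 3 SMA libraries lay above all 3 controls, and the nearest pair, control replicate 1 and SMA replicate 2, were 90.0 and 99.6 FPKM. The means were 71.8 ± 20.1 FPKM in control and 105 ± 6.65 FPKM in SMA (SD over n = 3 libraries each). This gave a log2 fold change of 0.58 (standard error 0.21, 95% interval 0.077 to 1.09, limma adjusted p = 0.683), while the exact two-sided permutation test gave p = 0.1, the smallest value that 3 libraries against 3 allow. With control replicate 2 left out it became 0.35 (95% interval 0.14 to 0.56, limma adjusted p = 0.313). The unadjusted limma p of Sst, under 0.05 in both, was over 0.05 with the same summed FPKM in every library (log2 fold change 0.61), without control replicate 3 (0.64) and without SMA replicate 1, 2 or 3 (0.59, 0.62 and 0.54). Over all settings tried, the adjusted p of Sst lay between 0.313 and 0.907.

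Promoters were examined for Sst, Cck and Calca because these are the 3 genes whose groups did not overlap without control replicate 2. Promoter sequences from RefSeq (GRCm38.p6) were matched for 8 of the 10 genes. The cyclic AMP response element TGACGTCA, a palindrome known from the somatostatin promoter, and its short form TGACG, which is contained in it, were searched on both strands in the 250 bases before the start. TGACGTCA was found in 1 of the 8 genes, Sst, and in 1.55% of 32851 promoters, and TGACG in 5 of the 8 (Calca, Cck, Nts, Sst and Tac1) and in 17.8% of promoters. The 120 bases before the start are printed for the 3 genes, all on the minus strand, 5′ to 3′, with matches to either motif on either strand in capitals. The start is that of RefSeq, which for Sst is base 23890844, inside the gene as annotated by GENCODE. Those of Cck are chr9:121495695-121495814, those of Sst chr16:23890845-23890964 and those of Calca chr7:114636358-114636477.
Cck: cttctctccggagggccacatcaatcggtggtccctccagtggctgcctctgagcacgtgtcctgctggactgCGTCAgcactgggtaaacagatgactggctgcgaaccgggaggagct
Sst: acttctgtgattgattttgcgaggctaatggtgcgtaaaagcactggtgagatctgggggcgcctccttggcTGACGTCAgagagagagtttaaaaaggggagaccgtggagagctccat
Calca: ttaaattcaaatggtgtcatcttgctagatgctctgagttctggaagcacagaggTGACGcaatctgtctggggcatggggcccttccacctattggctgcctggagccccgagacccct
The full element in Sst begins 48 bases before the start. The short form lies 47 to 43 bases before the start in Cck, as its reverse complement CGTCA, and 65 to 61 bases before it in Calca. A match describes the letters of the window and is not evidence of binding.

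Penk and Pdyn encode the opioid precursors, proenkephalin and prodynorphin. Penk measured 40.5, 18.6 and 48.1 FPKM in the controls, against 48.3, 46.3 and 50.3 FPKM in the SMA libraries. Control replicate 2 was far below the rest, and control replicate 3 lay among the SMA libraries. Penk differed by a log2 fold change of 0.53 (95% interval -0.25 to 1.31, exact two-sided permutation p = 0.2), and by 0.13 without control replicate 2 (95% interval -0.065 to 0.32). Its groups ceased to overlap without control replicate 3 (log2 fold change 0.79) and without SMA replicate 2 (0.56), with an unadjusted limma p over 0.05 in both. The locus that the tables give for Penk, on chromosome 4 from 4133531 to 4188703, is longer than the annotated gene (4133531 to 4138819, minus strand) and also spans a gene on the other strand, and whether strand was used in the estimation is not given in the sources used here, so part of this level may belong to that gene.

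Pdyn lies on chromosome 2 from 129686565 to 129699844. It measured 12.5, 7.06 and 13.0 FPKM in the controls, against 13.3, 12.7 and 12.4 FPKM in the SMA libraries. Apart from control replicate 2, its values in the 2 groups were interleaved within 12.4 to 13.3 FPKM. Its log2 fold change was 0.26 (95% interval -0.25 to 0.78) over 6 libraries and 0.0084 (95% interval -0.17 to 0.19) without control replicate 2. The spread of Pdyn within groups was then 0.046 log2 units, and 9.39% of the genes tested had a smaller one. Relative to the pan-neuronal genes, Pdyn differed by -0.0013 log2 units between the groups, with a sign that changed between settings.

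Npy, the precursor of neuropeptide Y, marks a class of inhibitory interneurons and lies on chromosome 6 from 49822710 to 49829507. It measured 21.4, 9.09 and 11.6 FPKM in the controls, against 17.8, 15.5 and 18.7 FPKM in the SMA libraries. Control replicate 1 was above all SMA libraries and the other controls were below them. Its log2 fold change was 0.37 (95% interval -0.31 to 1.05, exact two-sided permutation p = 0.4), and 0.13 without control replicate 2. Leaving out control replicate 1 instead gave 0.70 with an unadjusted limma p under 0.05, so that 1 library decided whether the groups overlapped.

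Cck, the precursor of cholecystokinin, is transcribed in excitatory interneurons of the deep dorsal horn and lies on chromosome 9 from 121489824 to 121495694. It measured 21.4, 10.4 and 14.6 FPKM in the controls, against 32.3, 28.6 and 24.6 FPKM in the SMA libraries. All SMA libraries lay above all controls, the nearest pair being control replicate 1 and SMA replicate 3. The means were 15.5 ± 5.54 FPKM in control and 28.5 ± 3.85 FPKM in SMA (SD over n = 3 libraries each), a log2 fold change of 0.89 or 1.85-fold (standard error 0.25, 95% interval 0.30 to 1.48, limma adjusted p = 0.683). The exact two-sided permutation test gave p = 0.1, again the smallest value possible. With control replicate 2 left out, the log2 fold change of Cck was 0.65 (95% interval 0.27 to 1.03, limma adjusted p = 0.308). In 17 of 17 alternative settings the unadjusted limma p of Cck stayed under 0.05, with log2 fold changes from 0.61 to 1.14, and its adjusted p lay between 0.305 and 0.907. Cck made up 8.44%, 8.29% and 6.54% of the summed level of the 10 genes in the controls, against 11.8%, 10.8% and 8.88% in the SMA libraries. The groups did not overlap in this share, which also moves with the levels of the other 9 genes, and the nearest pair was 8.44% and 8.88%.

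Tac1 encodes substance P and neurokinin A and lies on chromosome 6 from 7554879 to 7565834. Its level measured 39.0, 16.1 and 29.6 FPKM in the controls, against 33.4, 36.0 and 33.6 FPKM in the SMA libraries. The SMA libraries lay close together, between control replicates 3 and 1. Tac1 thus had a log2 fold change of 0.36 (95% interval -0.34 to 1.05, exact two-sided permutation p = 0.5), and of 0.015 (95% interval -0.24 to 0.27) without control replicate 2. Without control replicate 1, the only control above the SMA libraries, the groups of Tac1 did not overlap (log2 fold change 0.63, unadjusted limma p over 0.05).

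Tac2, which encodes neurokinin B, lies on chromosome 10 from 127724478 to 127731768 and had the lowest level and the widest spread of the 10 genes. It measured 2.32, 0.377 and 0.184 FPKM in the controls, against 2.46, 1.79 and 1.13 FPKM in the SMA libraries. Control replicate 1 was within the SMA range, while control replicates 2 and 3 were below it. The resulting log2 fold change was 0.64 (95% interval -0.35 to 1.63, exact two-sided permutation p = 0.3), or 0.47 (95% interval -0.49 to 1.42) without control replicate 2. It was 1.10, with an unadjusted limma p under 0.05, without control replicate 1. With a pseudocount of 0.1 in place of 1, it was 1.39 over 6 libraries (unadjusted limma p over 0.05). Its spread within groups, 0.62 log2 units, exceeded that of 94.0% of the genes tested.

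Grp encodes gastrin-releasing peptide, a transmitter of itch. Its level measured 5.74, 2.26 and 4.17 FPKM in the controls, against 6.63, 5.55 and 4.51 FPKM in the SMA libraries. Control replicate 1 lay among the SMA libraries. Grp had a log2 fold change of 0.43 (95% interval -0.23 to 1.09, exact two-sided permutation p = 0.3), and of 0.14 without control replicate 2. With control replicate 1 left out it was 0.66, with an unadjusted limma p under 0.05.

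Nts, the precursor of neurotensin, lies on chromosome 10 from 102481756 to 102490486. It measured 7.95, 4.40 and 6.28 FPKM in the controls, against 8.68, 7.52 and 8.47 FPKM in the SMA libraries. The groups overlapped only through control replicate 1 and SMA replicate 2. For Nts the log2 fold change was 0.38 (95% interval -0.073 to 0.84, exact two-sided permutation p = 0.2), and 0.19 (95% interval -0.095 to 0.48) without control replicate 2. Leaving out control replicate 1 gave 0.56 with an unadjusted limma p under 0.05, and leaving out SMA replicate 2 gave groups that did not overlap but a p over 0.05.

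Calca, the gene of calcitonin and of the alpha form of calcitonin gene-related peptide, was the only one of the 10 with a negative log2 fold change. It lies on chromosome 7 from 114631478 to 114636357, and a gene level does not separate its transcripts. Calca measured 12.4, 6.91 and 20.9 FPKM in the controls, against 7.34, 11.9 and 10.5 FPKM in the SMA libraries. Control replicate 3 was highest and control replicate 2 lowest, with all SMA libraries between them. Over 6 libraries its log2 fold change was -0.30 (95% interval -1.18 to 0.58, exact two-sided permutation p = 0.6). Leaving out control replicate 2 gave -0.67 (95% interval -1.23 to -0.12, limma adjusted p = 0.422), with control replicate 1 just above SMA replicate 2. Leaving out control replicate 3 gave 0.059, so that its direction rested on that library, and over all settings the adjusted p lay between 0.422 and 0.950.

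Several other genes shared the peak of Calca in control replicate 3. Of 9 Hox genes that mark spinal levels, 8 were highest in control replicate 3, where 17.5% of all genes tested were highest. The list also holds genes of levels above the lumbar cord, so this peak was not limited to the lumbar genes named here. The summed level of the 9 Hox genes measured 147, 113 and 236 FPKM in the controls, against 142, 157 and 158 FPKM in the SMA libraries. Hoxa10, a lumbar gene, was the most abundant. Hoxd10, also of the lumbar cord, measured 26.1, 15.1 and 50.7 FPKM in the controls, against 18.2, 27.0 and 24.0 FPKM in the SMA libraries. Like Calca, it was lowest in control replicate 2, and SMA replicate 1 was the lowest SMA library for both. Without control replicate 2, 3 of the 9 Hox genes were lower in SMA at an unadjusted limma p under 0.05 (5.2% of all genes tested), Hoxd10 (log2 fold change -0.66), Hoxc10 (-0.50) and Hoxa10 (-0.45), beside -0.67 for Calca.

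Of 7 genes of the oligodendrocyte lineage, 5 were also highest in control replicate 3, with sums of 823, 790 and 1208 FPKM in the controls, against 667, 814 and 839 FPKM in the SMA libraries. Their median log2 fold change was -0.28, and -0.39 without control replicate 2, where none of the 7 was positive (50.4% of all genes tested). In that comparison 2 of the 7 were lower in SMA at an unadjusted limma p under 0.05 (5.2% of all genes tested). Motor neurons transcribe Calca, and 4 of 5 motor neuron markers were also highest in control replicate 3. Their sum, led by the vesicular acetylcholine transporter gene Slc18a3, measured 28.5, 18.4 and 41.6 FPKM in the controls, against 31.3, 33.9 and 34.7 FPKM in the SMA libraries. Slc18a3 itself was highest in SMA replicate 2, and without control replicate 2 its log2 fold change was 0.20, against -0.34 for Slc5a7, the choline transporter gene. The 8 markers of dorsal root ganglion neurons, the other main site of Calca, were low throughout, with sums of 2.98, 0.794 and 2.02 FPKM in the controls, against 4.75, 3.31 and 2.21 FPKM in the SMA libraries. P2rx3 was the most abundant of them, and 1 of the 8 was listed at 0 in control replicate 2. Only 2 of the 8 reached the mean of 0.5 FPKM needed for testing. The part of spinal level, motor neurons or sensory neurons in the values of Calca was not tested.

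**Figure D4:**
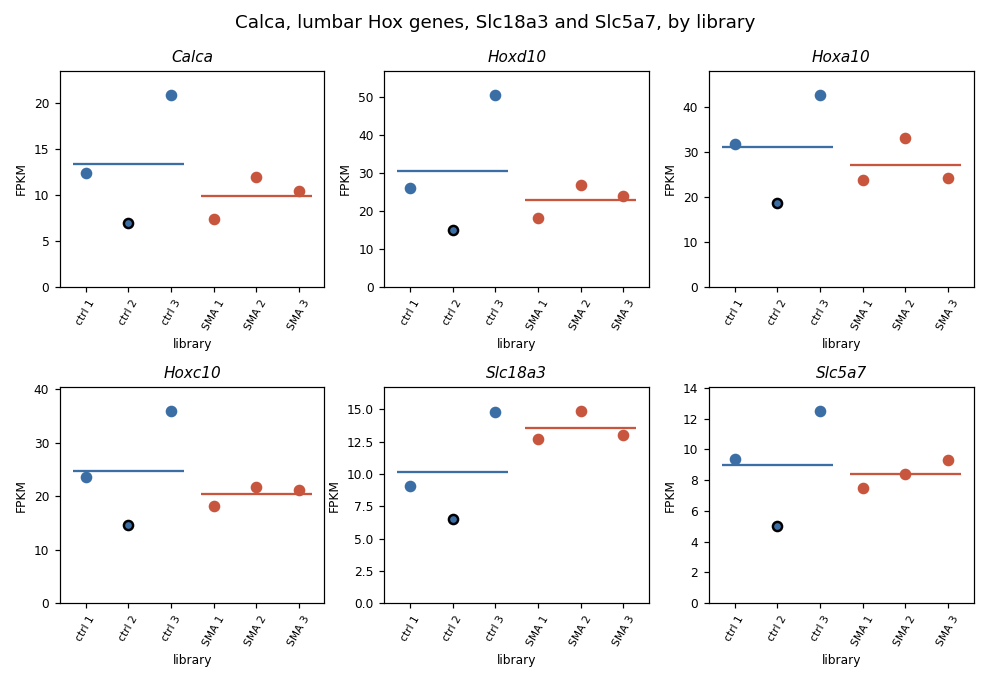
FPKM of Calca, the Hox genes Hoxd10, Hoxa10 and Hoxc10 and the motor neuron genes Slc18a3 and Slc5a7 in each library (ctrl, control, in blue; SMA in red), with a line at each group mean and a black ring around control replicate 2. All 6 genes are lowest in control replicate 2, and all but Slc18a3 are highest in control replicate 3, where Calca is at 20.9 FPKM.

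A second comparison set each gene against a neuronal reference in its own library, as log2(FPKM + 1) minus the mean log2(FPKM + 1) of the 13 pan-neuronal genes. This mean was itself 7.43, 6.78 and 7.49 in the controls, against 7.44, 7.52 and 7.54 in the SMA libraries. Its genes did not all move alike. Without control replicate 2, 2 of the 13 were higher in SMA at an unadjusted limma p under 0.05 (5.27% of all genes tested). Another 2 were lower (5.2% of all genes tested). On the relative scale Cck stood at -2.95, -3.27 and -3.52 in the controls, against -2.38, -2.63 and -2.87 in the SMA libraries. Sst stood at -0.93, -1.10 and -1.24 in the controls, against -0.73, -0.87 and -0.72 in the SMA libraries. Calca stood at -3.69, -3.80 and -3.04 in the controls, against -4.38, -3.83 and -4.03 in the SMA libraries. For Cck and Sst all SMA libraries lay above all controls, and for Calca all lay below, although control replicate 2 and SMA replicate 2 were close (-3.80 and -3.83). With a pseudocount of 0.1 the groups of Calca overlapped on this scale (difference -0.59, exact two-sided permutation p = 0.2). Control replicate 2 was the middle control for Cck and Sst and the lowest for Calca.

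The difference between the group means on this scale was 0.62 for Cck, 0.32 for Sst and -0.57 for Calca (exact two-sided permutation test, p = 0.1 for each, the smallest value possible). They were 0.61, 0.31 and -0.71 without control replicate 2 (exact two-sided permutation test, again p = 0.1 for each). Without control replicate 3, the peak of Calca, they were 0.48, 0.24 and -0.33 (exact two-sided permutation p = 0.2 for each). The groups of each gene still did not overlap there. Leaving out an SMA library gave p = 0.2 for Cck and Sst each time, and 0.2 or 0.3 for Calca (exact two-sided permutation test). A neuronal reference moved all genes. In the limma setting that scales FPKM to the pan-neuronal genes, a related but not identical measure, the median log2 fold change of all genes tested went from 0.044 to -0.18. On the relative scale itself, 0.901% of all genes tested had every SMA library above every control, as 2 of the 10 did. Another 15.9% had every SMA library below, as 1 of the 10 did. Without control replicate 2 the shares were 8.4% above and 16.6% below. The groups of the other 7 genes overlapped on this scale. Their differences ran from -0.0013 for Pdyn to 0.38 for Tac2 (exact two-sided permutation test, p between 0.2 and 1), and that of Tac2 was 1.12 with a pseudocount of 0.1.

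**Figure D5:**
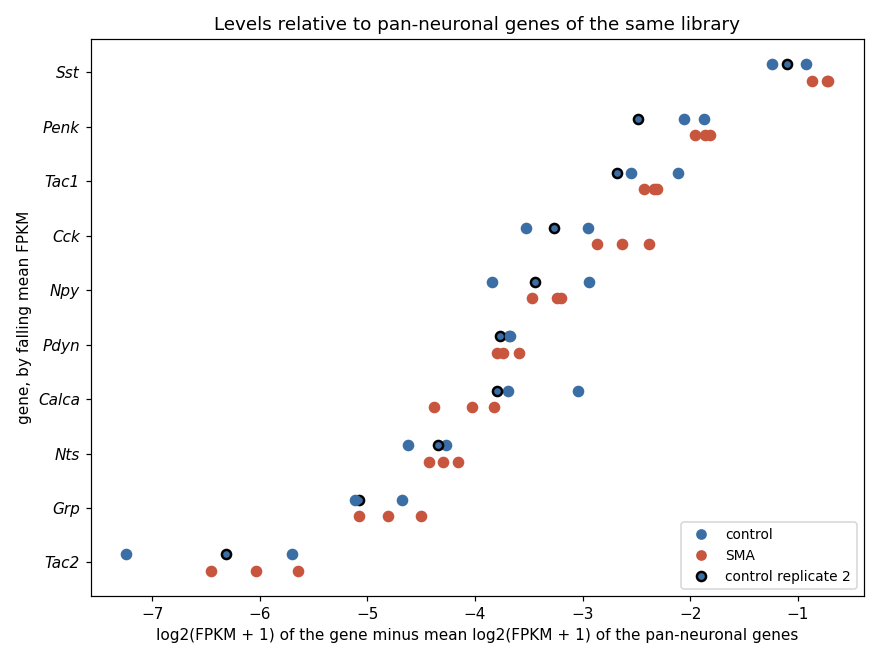
Level of each gene relative to 13 pan-neuronal genes of the same library, in log2 units, 1 point per library (control in blue, SMA in red, control replicate 2 ringed in black). Control replicate 2 lies between the other controls for Sst, Cck, Npy, Nts, Grp and Tac2, and the groups are apart for Sst, Cck and Calca.

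Receptors of these and related peptides were examined as a list of 26 genes, of which 20 were tested. None had a limma p under 0.05 in either direction, with or without control replicate 2. Their median log2 fold change was 0.23 over 6 libraries and 0.027 without control replicate 2. The most abundant were Oprl1, the nociceptin receptor gene, Sort1, a sorting receptor that binds neurotensin, and Ramp1, a subunit of the receptor for calcitonin gene-related peptide. Cckbr, the main receptor for cholecystokinin in neurons, measured 4.999, 2.81 and 4.86 FPKM in the controls, against 5.85, 5.37 and 4.41 FPKM in the SMA libraries, while Cckar was at most 0.512 FPKM in any library. Beside Cck, which was higher in all 3 SMA libraries, the groups of Cckbr overlapped (log2 fold change 0.27, and 0.060 without control replicate 2). Of the somatostatin receptor genes, Sstr1 (log2 fold change 0.19, and 0.027 without control replicate 2) and Sstr2 (0.30 and 0.099) overlapped between the groups too. Sstr4 overlapped over 6 libraries as well (0.071), but without control replicate 2 it was -0.25, with every SMA library below every control. Tacr1, the receptor of substance P, measured 4.94, 3.07 and 5.08 FPKM in the controls and lay between 4.45 and 4.55 FPKM in the SMA libraries, beside the overlapping groups of its ligand gene Tac1. Its log2 fold change turned from 0.058 to -0.13 without control replicate 2, where 4 of 21 receptors, Tacr1 among them, had every SMA library below every control (13.9% of all genes tested) and 3 had every SMA library above (14.2%).

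Among 29 other neuropeptide precursor genes, 14 were tested, 1 was higher at a limma p under 0.05 and none was lower (3.4% and 2.39% of all genes tested). The median log2 fold change of the 14 was 0.076, and -0.041 without control replicate 2, where 3 of 14 were positive (50.4% of all genes tested). The most abundant were Adcyap1, Pnoc and Gal, whose means over the libraries (13.3, 6.90 and 5.88 FPKM) lay between those of Grp and Npy. The gene that was higher, Nmb, encodes neuromedin B, a relative of the peptide of Grp. It measured 1.52, 1.95 and 1.79 FPKM in the controls, against 3.30, 2.36 and 3.03 FPKM in the SMA libraries. Every SMA library lay above every control, and control replicate 2 was the highest control, unlike for the 10 genes. Nmb had a log2 fold change of 0.50 (limma adjusted p = 0.683), and of 0.55 without control replicate 2, but its unadjusted limma p was over 0.05 without SMA replicate 1 (log2 fold change 0.42), without SMA replicate 3 (0.47) and when scaled to pan-neuronal genes (0.30).

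Of 16 genes that process and store neuropeptides, 15 were lowest in control replicate 2, none had a limma p under 0.05, and their median log2 fold change of 0.27 became 0.044 without control replicate 2. Cpe, the carboxypeptidase that trims peptide ends and the most abundant of the list, measured 369, 207 and 325 FPKM in the controls, against 369, 402 and 388 FPKM in the SMA libraries. It had the low control replicate 2 of most of the 10 precursor genes. None of the 10 genes for peptidases that degrade neuropeptides had a limma p under 0.05, with a median log2 fold change of 0.032, which turned to -0.11 without control replicate 2.

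Markers of the interneurons that transcribe these precursors were set beside them. Of 9 dorsal excitatory markers, led by the glutamate transporter gene Slc17a6, 8 were tested and none had a limma p under 0.05. Their median log2 fold change was 0.21, and 0.015 without control replicate 2. Sst and Cck, which excitatory cells transcribe, were both higher, with log2 fold changes of 0.35 and 0.65 without that library. The groups of Tac1, Tac2, Nts and Grp overlapped, and their log2 fold changes were then 0.015, 0.47, 0.19 and 0.14. Of 9 inhibitory markers, led by Gad1, 2 had a limma p under 0.05 and were higher in SMA (3.4% of all genes tested), Pax2 (log2 fold change 0.53, and 0.43 without control replicate 2) and Nos1 (0.58 and 0.43), which are named after their values were seen. Scaled to pan-neuronal genes, neither had a p under 0.05 (log2 fold changes 0.28 and 0.36), but both did when control replicate 2 was also left out (0.39 for each). Without control replicate 2, 3 inhibitory markers were higher and 1 lower at that threshold, as were 5.27% and 5.2% of all genes tested. For 5 of the 9, every SMA library lay above every control library over 6 libraries (10.3% of all genes tested). Penk, Pdyn and Npy, which many inhibitory cells transcribe, had log2 fold changes of 0.13, 0.0084 and 0.13 without that library.

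Over 6 libraries, each of the 10 genes had a wider spread within groups than most genes, which without control replicate 2 did not hold for Pdyn and Penk. Their median standard deviation within groups was 0.42 log2 units over 6 libraries, beside 0.20 for all genes tested, and 0.21 beside 0.12 without control replicate 2. Penk fell from 0.50 to 0.11 log2 units when that library was left out, whereas Npy (0.43 to 0.36) and Calca (0.57 to 0.39) kept most of their spread. Tac2 did not narrow (0.62 and 0.67). The 5 tested genes most like the mean of the 10 over the 6 libraries were Samd14, A830018L16Rik, Cxadr, Hoxb7 and B230219D22Rik, with Pearson's r from 0.998 to 0.999. Over the 5 libraries without control replicate 2 their r was 0.979 to 0.988. These 5 were picked from 17078 genes for this likeness, and all 5 were lowest in control replicate 2.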

How the data were processed

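The authors sequenced strand-specific, ribosome-depleted libraries and deposited 1 table of FPKM values per library; the submitters' processing notes name HISAT2, Cufflinks and the build mm10, with no versions. The 10 genes and the gene lists were chosen with earlier results of these data known. Genes averaging 0.5 FPKM or more were compared on log2(FPKM + 1) with limma 3.58.1 (R 4.3.3; lmFit, eBayes with trend), with Benjamini-Hochberg adjustment over all genes tested. The steps were tested on simulated data with a narrower spread and larger changes than the 10 genes had over 6 libraries. That test does not show how well changes of the size seen here are found. Exact two-sided permutation tests were run for single genes. Read counts are unknown, so no counting error is given. Alternatives were a pseudocount of 0.1, no filter or a minimum mean of 1 FPKM, 4 other scalings (equal sums, quantiles, median of ratios, pan-neuronal genes), a robust eBayes, a block for the replicate number and leaving out each library. Scaling by median ratios or pan-neuronal genes without control replicate 2 was added after seeing the data. Named genes were the 10, Smn1, the 3 most abundant genes of each list, receptors beside their ligand, pathway genes with p under 0.05 and no overlap, and the 5 genes most like the mean of the 10; Pax2 and Nos1 were added after their values were seen. Coordinates are from GENCODE M21 and promoters from RefSeq.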

Additional observations from a re-analysis of the deposited data

How the results depend on the processing

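Cck was higher in SMA with a limma p under 0.05 in 17 of 17 alternatives and Sst in 12 of 17, and both were positive in all of them. The number of the 10 genes with an unadjusted p under 0.05 was 2, and 1 after scaling to the same summed FPKM. Leaving out 1 library gave from 1 (without control replicate 3 or any SMA library) to 6 genes (without control replicate 1). The number whose groups did not overlap was 2, and from 2 to 7 when 1 library was left out. Leaving out 1 library moved all genes too, from 17.0% without overlap to between 22.3% and 34.2%, and from 5.79% with a p under 0.05 to between 1.98% and 10.5%. The median log2 fold change of 0.40 stayed positive, from 0.10 (pan-neuronal scaling without control replicate 2) to 0.67 (without control replicate 1). Over all genes, no alternative with all 6 libraries had a gene with an adjusted p under 0.05, and scaling moved the share of higher among genes with an unadjusted p under 0.05 from 58.7% to between 8.39% (pan-neuronal genes) and 65.9% (quantiles).

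With the replicate number as a block, 2 of the 10 genes again had a p under 0.05, and over all genes 659 did, against 990 without it. The numbers share no stated source, and same-numbered libraries did not deviate together (correlations of -0.037, 0.016 and 0.077 for pairs 1, 2 and 3).

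Signs that changed were those of Calca (-0.30; 0.059 without control replicate 3, the highest of its leave-one-out values, which began at -0.67) and, with pan-neuronal scaling and control replicate 2 left out, an alternative chosen after seeing the data, those of Tac1 (-0.024) and Pdyn (-0.028). Relative to the pan-neuronal list, leave-one-out values crossed 0 for Tac1 (-0.024 without control replicate 2 to 0.26 without control replicate 1), Npy (-0.11 without control replicate 3 to 0.34 without control replicate 1), Tac2 (-0.036 and 0.74 without the same libraries) and Pdyn (-0.060 to 0.041 without SMA replicates 1 and 3), and Pdyn was at 0.021 with a pseudocount of 0.1. The cause was not tested. Depth in reads is unknown, which limits the low genes, Tac2 above all.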
